A study of Mus musculus with 21 samples.

Results

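The genes of the constitutive proteasome were examined in bulk RNAseq counts from mouse brain, labelled neocortex. The methods of the study name brain cortex, and a legend for groups of these sizes names hippocampus, so the tissue is given here as labelled. They were taken as every row of the count table with a symbol of the form Psma, Psmb, Psmc, Psmd, Psme, Psmf or Psmg and a number, apart from the immunoproteasome genes Psmb8, Psmb9 and Psmb10. This gave 45 genes among 48474 rows. The 16 genes of the 20S core comprised 8 Psma and 8 Psmb genes, and the 20 genes of the 19S particle comprised 6 Psmc and 14 Psmd genes. The other 9 were the activator genes Psme1 to Psme4, the inhibitor gene Psmf1 and the assembly chaperone genes Psmg1 to Psmg4. Psma8 and Psmb11 had too few counts to be tested, which left 43 genes among 18248 tested.

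The TG group held 10 rNLS8 mice, which carry both an NEFH-tTA driver and a tetO-hTDP-43ΔNLS responder, so that human TDP-43 without its nuclear localization signal is made, almost exclusively in neurons, once doxycycline is withdrawn. The WT group held 11 monogenic control littermates, and the labels do not say which transgene each carried. Comparing the groups asks which transcripts differ in cortex after neurons have expressed mislocalized TDP-43. All 21 mice had been injected into a cerebral ventricle with 350 µg of a non-targeting control antisense oligonucleotide (ASO) in 10 µL at 17 to 19 weeks of age, were fed doxycycline at 200 mg/kg until 2 weeks later, and were kept without it for 3 weeks. The labels assign them to independent cohorts, here called batch A (4 WT and 3 TG mice) and batch B (7 WT and 7 TG mice), and give no sex. Single mice are called by the library names of the labels, such as T61340.

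The proteasome degrades proteins tagged with ubiquitin. Its 20S core is a barrel of stacked rings, with alpha subunits forming the gated outer rings and beta subunits forming the inner rings that hold the proteolytic sites. The 19S particle caps the core. Its base contains a ring of ATPases that unfold substrates and feed them into the core, and its lid removes the ubiquitin chain. Other activators open the gate without ATP, and dedicated chaperones assemble the parts. Since subunits are built into a complex in fixed proportions, the order of their mRNA levels and any unequal change among them are shown here gene by gene.

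Total counts per mouse were between 20700912 and 22263809. Defining markers of neurons (Rbfox3, Slc17a7), astrocytes (Aqp4), oligodendrocytes (Mbp), microglia (Cx3cr1) and endothelium (Cldn5) were present in every mouse, from 536 counts upwards. Tardbp, the mouse gene of the protein expressed by the transgene, was at 2253.3 to 2827.5 normalized counts in WT mice and at 2363.4 to 5053.3 in TG mice. It rose by 0.62 ± 0.071 (log2 ± SE, edgeR quasi-likelihood test, adjusted p = 1.5e-07), with 9 of 10 TG mice above every WT mouse. The TG mice of batch A were at 2363.4 to 3091.1 and those of batch B at 4404.6 to 5053.3. In batch A alone Tardbp did not pass (0.26, adjusted p = 0.191), against 0.79 in batch B (adjusted p = 1.42e-10), and the difference between the batches was -0.56 (interaction p = 7.31e-06, adjusted p = 0.133). The table has no human row, so it is unknown how reads of the human transgene were assigned. In TG mouse T61340 of batch A, 7 proteasome genes stood above all other TG mice by more than a limit for outlying values. Calls that changed when it was left out are therefore also given without it. Normalized counts are counts scaled to a common effective library size.

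Promoters of 37 of the 45 genes were found in RefSeq (GRCm38.p6), each spanning 250 bases before to 50 bases after a start site. Those of 6 genes are shown because they belong to partners within the same ring or complex whose mRNAs moved unequally or in opposite directions. Psme2 (chr14:55591052-55591351, minus strand) and Psme1 (chr14:55578244-55578543, plus strand) encode the partner subunits of one activator and are near neighbours, the genes spanning chr14:55587440-55591101 and chr14:55578494-55581527. Psmc4 (chr7:28050043-28050342, minus strand) and Psmc5 (chr11:106255935-106256234, plus strand) encode ATPases of the same ring. Psmb3 (chr11:97703184-97703483, plus strand) and Psmb4 (chr3:94886909-94887208, minus strand) encode beta subunits. Capitals mark the letters GAAANNGAA on either strand, the core of an interferon-stimulated response element.
Psme2: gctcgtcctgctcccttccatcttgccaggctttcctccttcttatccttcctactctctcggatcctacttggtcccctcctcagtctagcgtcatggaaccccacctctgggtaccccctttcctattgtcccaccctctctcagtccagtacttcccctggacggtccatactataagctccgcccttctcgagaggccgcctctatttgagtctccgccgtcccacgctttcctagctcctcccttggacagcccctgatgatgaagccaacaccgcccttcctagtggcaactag
Psme1: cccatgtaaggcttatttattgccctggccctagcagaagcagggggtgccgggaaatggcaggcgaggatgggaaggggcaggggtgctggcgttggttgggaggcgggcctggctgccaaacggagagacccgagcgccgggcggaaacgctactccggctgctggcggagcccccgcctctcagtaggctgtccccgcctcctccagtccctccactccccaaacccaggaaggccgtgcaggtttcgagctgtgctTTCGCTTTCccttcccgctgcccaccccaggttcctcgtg
Psmc4: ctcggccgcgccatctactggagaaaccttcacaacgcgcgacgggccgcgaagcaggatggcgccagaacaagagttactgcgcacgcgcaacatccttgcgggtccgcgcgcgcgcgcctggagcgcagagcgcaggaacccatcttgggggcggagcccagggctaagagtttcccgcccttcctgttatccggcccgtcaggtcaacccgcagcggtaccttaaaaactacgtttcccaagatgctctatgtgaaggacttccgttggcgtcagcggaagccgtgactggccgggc
Psmc5: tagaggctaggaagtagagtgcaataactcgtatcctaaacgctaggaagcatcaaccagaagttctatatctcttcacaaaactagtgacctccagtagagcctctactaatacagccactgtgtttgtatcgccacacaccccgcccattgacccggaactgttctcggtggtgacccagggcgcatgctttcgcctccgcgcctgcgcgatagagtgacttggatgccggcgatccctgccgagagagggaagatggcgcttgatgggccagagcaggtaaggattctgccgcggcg
Psmb3: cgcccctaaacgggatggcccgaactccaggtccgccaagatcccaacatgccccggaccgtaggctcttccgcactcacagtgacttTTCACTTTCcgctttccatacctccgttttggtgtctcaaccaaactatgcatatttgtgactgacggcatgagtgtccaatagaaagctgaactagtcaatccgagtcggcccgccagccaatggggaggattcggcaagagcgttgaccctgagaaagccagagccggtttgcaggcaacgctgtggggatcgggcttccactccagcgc
Psmb4: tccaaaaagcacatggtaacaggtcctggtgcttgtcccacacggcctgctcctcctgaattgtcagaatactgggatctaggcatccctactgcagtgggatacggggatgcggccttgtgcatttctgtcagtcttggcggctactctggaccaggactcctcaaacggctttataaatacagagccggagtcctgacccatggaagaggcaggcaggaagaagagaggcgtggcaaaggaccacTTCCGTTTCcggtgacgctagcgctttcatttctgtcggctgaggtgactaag

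These letters occurred in the promoters of 7 of 37 proteasome genes (18.9%), against 9.76% of 27025 genes with a promoter. The 7 were Psmb3, Psmb4, Psmc2, Psmd4, Psmd9, Psme1 and Psmg4, of which Psmb3 and Psmd4 were higher and Psmb4 was lower in TG mice. The core of the antioxidant response element, searched as TGACNNNGC on both strands, occurred in 6 of 37 (16.2%) against 14.0% of all genes. Its bearers were Psmb5, Psmb6, Psmc6, Psmd12, Psmd9 and Psme4, of which Psmc6 and Psme4 were lower. TTCNNNGAA, which reads alike on both strands and is the gamma-activated site, occurred in Psmd2 and Psmg1, 5.41% of the members against 9.55% of all genes. The matches of different motifs did not overlap each other in these promoters. A match is a run of letters and not a measured binding site.

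In WT neocortex the mRNA levels per kilobase differed several-fold among subunits of the same complex. Per kilobase of principal transcript, the 14 tested 20S genes had WT medians between 441.5 normalized counts (Psma2) and 1935.1 (Psmb7), a 4.38-fold range, with a median of 1078.1. The 17 subunit genes of the 19S particle, its 3 assembly chaperones left aside, spanned 363.3 (Psmd11) to 2261.3 (Psmc5), a 6.22-fold range with a median of 892.8. These ranges and orders depend on the transcript length used, such as 2911 bases for Psma2 and 1201 for Psma1. Without division by length, the WT median of Psma2 (1285.2 normalized counts) lay above that of Psma1 (1090.1). Among the catalytic subunits, Psmb7 was followed by Psmb6 at 1673.2 and Psmb5 at 1039.7 per kilobase. Among the activators, Psme3 was at 881.9, Psme1 at 505.6, Psme2 at 392.6 and Psme4 at 119.3 per kilobase. All 4 Psmg genes and the 19S chaperones Psmd5, Psmd9 and Psmd10 lay between 109.6 (Psmg4) and 232.2 (Psmg2) per kilobase, below every tested 20S or 19S subunit gene. Psma8, the testis form of an alpha subunit, was at 3.8 and Psmb11, the thymus form of the chymotrypsin-like subunit, at 0.501 per kilobase.

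**Figure D1:**
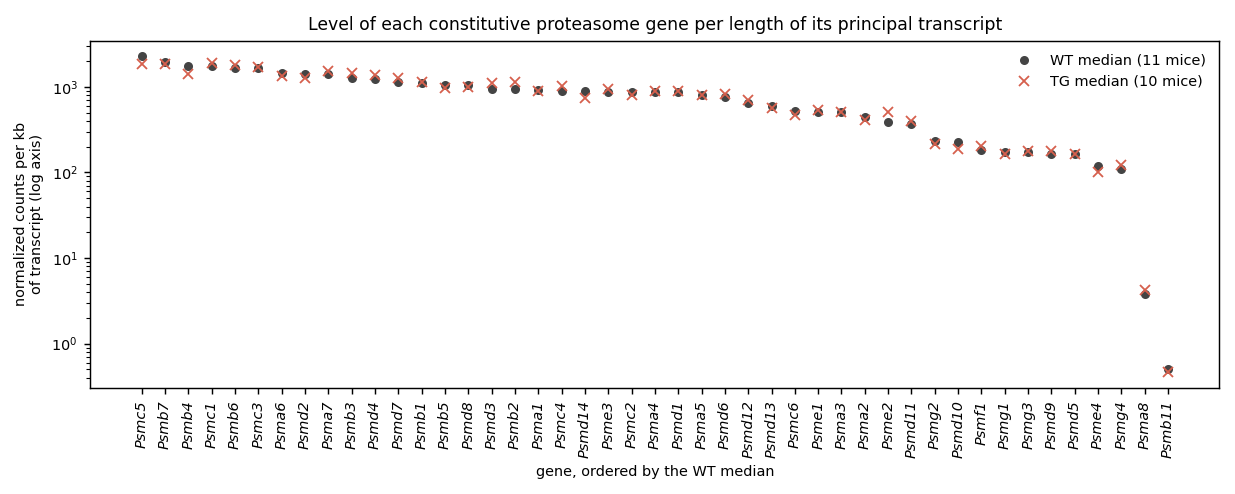
Median normalized counts per kilobase of principal transcript for each of the 45 genes (log axis), with dots for 11 WT mice and crosses for 10 TG mice, ordered by the WT median. Psmc5 stands first at 2261.3 in WT mice, and Psma8 and Psmb11 lie far below all others.

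Across the whole complex, 10 genes were higher and 9 were lower in TG than in WT mice, and 24 did not pass the threshold (edgeR quasi-likelihood test with batch in the model, adjusted p under 0.05). The higher genes were Psmb2, Psmb3, Psmc4, Psmd3, Psmd4, Psmd7, Psmd11, Psme2, Psme3 and Psmf1. The lower genes were Psma6, Psmb4, Psmc5, Psmc6, Psmd2, Psmd10, Psmd14, Psme4 and Psmg2. The 19 changed genes were 44.2% of the 43 tested, against 44.7% of all 18248 genes, of which 23.0% were higher and 21.7% lower. The share of changed genes was therefore at the background of this comparison. Differences were small, between -0.33 (Psmc5) and 0.42 (Psme2) on the log2 scale, with a median absolute difference of 0.11 against 0.18 for all genes tested, and 16.5% of all genes had a larger absolute difference than any constitutive proteasome gene. Upper quartile scaling, DESeq2 size factors and DESeq2 each also gave 10 genes higher and 9 lower. Scaling by library size alone did not. With library size as the only scaling, which moved the median of all genes from -0.001 to 0.076, 21 of the 43 genes were higher and 4 lower (Psmb4, Psmc5, Psmd10 and Psmd14), against 31.9% and 15.1% of all genes. The further higher genes under that scaling were Psma3, Psma7, Psmb1, Psmb6, Psmc1, Psmc3, Psmd1, Psmd6, Psmd9, Psmd12 and Psme1, at 0.12 to 0.20 on the log2 scale. None of the 19 called genes changed direction, but the balance of directions did not hold with library size as the only scaling. Ratios within a library, which need no scaling, are given below.

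In bulk tissue, fewer cells of a type and less RNA per cell cannot be told apart. For the marker counts below, the shares over all genes tested were 23.0% higher and 21.7% lower. Of 8 neuronal markers 6 were lower in TG mice, among them Snap25 (-0.75), Syt1 (-0.53) and Stmn2 (-0.43 on the log2 scale), while Rbfox3 and Slc17a7 did not pass the threshold. The summed level of these markers was 196457.1 to 247499.5 normalized counts in WT and 141801.6 to 177560.1 in TG mice. Of 7 microglial markers 5 were higher and 1 was lower, with sums of 7411.6 to 8542.3 in WT and 7808.7 to 11472.5 in TG mice. Of 6 astrocyte markers 4 were lower (Aldh1l1, Aqp4, Slc1a3 and Gja1, from -0.27 to -0.15) and Gfap was higher by 1.03, with overlapping sums of 41672.0 to 53309.3 in WT and 38712.4 to 56812.3 in TG mice. Of 6 oligodendrocyte and 3 oligodendrocyte precursor markers 0 passed the threshold, and of 4 endothelial markers 1 was lower (Flt1, -0.17). The part of the marker shifts in the proteasome differences was not tested.

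**Figure D2:**
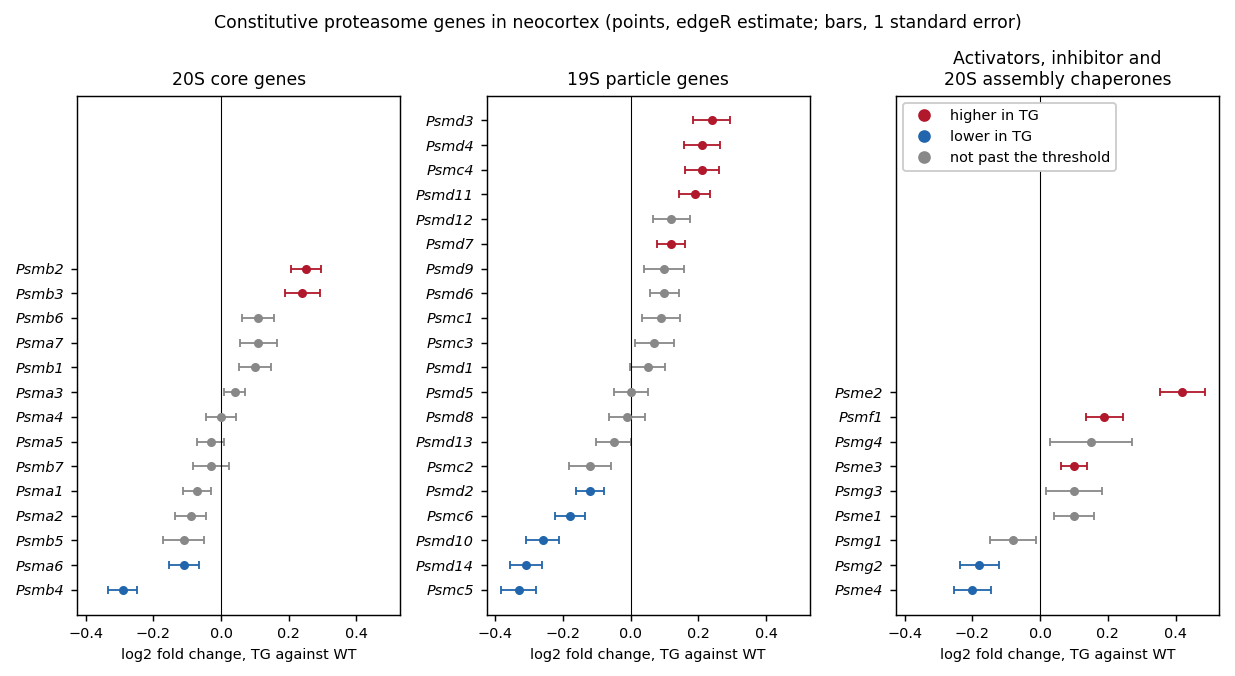
Log2 fold change of TG against WT mice for each tested gene, with bars of 1 standard error, by class. Higher (red) and lower (blue) genes occur in every class, from Psmc5 at -0.33 to Psme2 at 0.42.

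The alpha subunits, which form the gate of the core, hardly differed. Psma6 alone passed the threshold among the 7 tested alpha genes, 14.3% against 44.7% of all genes tested. The log2 fold changes of the 7 spanned -0.11 to 0.11. Psma6 had 1339.6 to 1641.6 normalized counts in WT mice (median 1495.3) and 1167.1 to 1558.3 in TG mice (median 1408.3). The groups overlapped widely, with 3 TG mice below every WT mouse. It fell by 0.11 ± 0.044 on the log2 scale (edgeR adjusted p = 0.0355). This call was lost when any of 10 single mice was left out (WT T61333, T61345, T_69523, T_70262 and T_70264, TG T60303, T61342, T_69531, T_70261 and T_70267), with adjusted p reaching 0.0817. It was also lost with library size as the only scaling (-0.039, adjusted p = 0.491), without batch in the model (adjusted p = 0.121), without a filter on low counts (adjusted p = 0.146) and in either batch alone (adjusted p = 0.453 and 0.0889). Psma7 was at 0.11 ± 0.055 and Psma2 at -0.09 ± 0.045 without passing the threshold (adjusted p = 0.124 and 0.121), but Psma7 passed without TG mouse T61342 (0.13, adjusted p = 0.0452). Psma4 was at 0.00 ± 0.045, with a 95% confidence interval of -0.08 to 0.09.

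Beta subunits moved in opposite directions within their ring. Of 7 tested beta genes 2 were higher and 1 was lower, 42.9% against 44.7% of all genes tested. Psmb4, a non-catalytic beta subunit, had 1954.5 to 2185.9 normalized counts in WT mice (median 2087.0) and 1511.6 to 2046.7 in TG mice (median 1657.2). TG mouse T61340 of batch A held the highest TG value, and the other 9 TG mice were below every WT mouse. Psmb4 fell by 0.29 ± 0.043 on the log2 scale, or to 0.819-fold, the lowest adjusted p among the 43 tested constitutive genes (6.2e-06), and by 0.33 without that mouse. Psmb2, another non-catalytic subunit, went the other way. It had 724.1 to 862.2 normalized counts in WT mice (median 802.8) and 858.0 to 1098.5 in TG mice (median 971.0), with 9 of 10 TG mice above every WT mouse. Its log2 fold change was 0.25 ± 0.044 (adjusted p = 4.45e-05). Psmb3, also non-catalytic, had 884.9 to 1021.8 normalized counts in WT mice (median 972.7) and 981.6 to 1531.2 in TG mice (median 1108.2), and 8 TG mice lay above every WT mouse. It rose by 0.24 ± 0.051 (adjusted p = 0.000369), and by 0.19 without TG mouse T61340, which held the 1531.2. Psmb1 was at 0.10 ± 0.047 (adjusted p = 0.104), and at 0.12 without WT mouse T_70264 (adjusted p = 0.0407).

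None of the genes of the 3 catalytic subunits passed the threshold with all mice and TMM scaling (edgeR; 1 of 3 did at an unadjusted p under 0.05, and DESeq2 called 0 of 3). With library size as the only scaling Psmb6 was called higher (0.18, adjusted p = 0.00284). Psmb5, the chymotrypsin-like subunit, had 800.3 to 1133.5 normalized counts in WT mice (median 934.7) and 697.5 to 1195.3 in TG mice (median 880.5), at a log2 fold change of -0.11 ± 0.06 (adjusted p = 0.15). Psmb6, the caspase-like subunit, had 1218.1 to 1462.7 in WT (median 1335.2) and 1265.7 to 1640.1 in TG mice (median 1436.9), at 0.11 ± 0.047 (adjusted p = 0.0719). Psmb7, the trypsin-like subunit, had 2181.2 to 2530.3 in WT (median 2244.8) and 2009.1 to 3111.9 in TG mice (median 2137.4), at -0.03 ± 0.054 (adjusted p = 0.677). For Psmb7, 6 TG mice lay below every WT mouse while TG mouse T61340, at 3111.9, lay above all. Without that mouse Psmb7 was called lower (-0.092, adjusted p = 0.0452), and so was Psmb5 (-0.15, adjusted p = 0.0243). Psmb6 passed the threshold without TG mouse T61342 or TG mouse T_70267.

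The immunoproteasome replaces these catalytic subunits by inducible ones. Its genes Psmb8 and Psmb9 were far lower in level per kilobase than Psmb5 to Psmb7, and both rose. Psmb8 had 53.6 to 71.5 normalized counts in WT mice (median 62.2) and 76.4 to 279.7 in TG mice (median 133.1), without overlap, and rose by 1.30 ± 0.14 (adjusted p = 5.92e-08). Groups without overlap were seen in 7.65% of all genes tested. Psmb9 had 23.0 to 46.9 in WT (median 31.4) and 39.2 to 138.0 in TG mice (median 66.0), and rose by 1.18 ± 0.13 (adjusted p = 9.35e-08). Further rows of the table for both symbols were higher as well (1.26 and 1.24). The third, Psmb10, was at -0.10 ± 0.061 (adjusted p = 0.194), but was called lower without TG mouse T61340 (-0.15, adjusted p = 0.0216). Per kilobase, the TG median of Psmb8 (81.8) was still below the TG median of every tested 20S gene of the constitutive core.

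The ATPases of the 19S base included the largest decrease among the constitutive genes. Psmc5 had 2371.6 to 3435.6 normalized counts in WT mice (median 2975.8) and 1973.0 to 2644.9 in TG mice (median 2439.1). In batch B every TG mouse (2257.1 to 2625.6) was below every WT mouse (2918.3 to 3435.6), while in batch A the ranges of 2371.6 to 2939.0 in WT and 1973.0 to 2644.9 in TG mice overlapped. Psmc5 fell by 0.33 ± 0.052 on the log2 scale (adjusted p = 1.47e-05). Psmc6 had 1029.2 to 1289.3 in WT (median 1171.4) and 909.9 to 1251.7 in TG mice (median 1053.3), with 4 TG mice below every WT mouse, and fell by 0.18 ± 0.044 (adjusted p = 0.00193). With scaling by library size only it was no longer past the threshold (-0.10, adjusted p = 0.0665). Psmc4 rose. It had 1162.7 to 1531.3 in WT (median 1285.6) and 1331.3 to 1715.8 in TG mice (median 1486.9), at 0.21 ± 0.05 (adjusted p = 0.00106). Psmc1 (0.09), Psmc3 (0.07) and Psmc2 (-0.12 on the log2 scale) did not pass, but with library size as the only scaling Psmc1 (0.17, adjusted p = 0.011) and Psmc3 (0.15, adjusted p = 0.0321) were called higher, and Psmc2 was called lower without TG mouse T61340 (-0.17, adjusted p = 0.014).

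Psmd14 encodes the deubiquitinase of the lid. It had 1206.7 to 1567.5 normalized counts in WT mice (median 1363.2) and 868.5 to 1278.4 in TG mice (median 1140.2), with 9 of 10 TG mice below every WT mouse. It fell by 0.31 ± 0.047 on the log2 scale (adjusted p = 1.1e-05). Of the 11 non-ATPase subunit genes 4 rose and 2 fell, or 54.5% against 44.7% of all genes. Psmd2, a large scaffold of the base, fell by 0.12 ± 0.042 (adjusted p = 0.0208), from a median of 4175.6 in WT to 3752.0 in TG mice, but not with scaling by library size only (-0.047, adjusted p = 0.363), without a filter on low counts (-0.11, adjusted p = 0.0973) or in batch A alone (-0.072, adjusted p = 0.723).

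The lid genes Psmd3, Psmd7 and Psmd11 and the ubiquitin receptor gene Psmd4 rose. Psmd3 had 1844.8 to 2201.0 normalized counts in WT mice (median 2031.0) and 1957.2 to 2874.9 in TG mice (median 2351.4), and 8 TG mice were above every WT mouse. Its log2 fold change was 0.24 ± 0.055 (adjusted p = 0.00085). Psmd4 had 1432.8 to 1819.3 in WT (median 1638.1) and 1645.5 to 2278.7 in TG mice (median 1855.7), at 0.21 ± 0.053 (adjusted p = 0.00254). Psmd11 had 877.4 to 1087.3 in WT (median 1034.6) and 1013.5 to 1247.7 in TG mice (median 1141.6), at 0.19 ± 0.046 (adjusted p = 0.00178). As for Psmd3, 8 TG mice were above every WT mouse. Psmd7 was at 0.12 ± 0.042 (adjusted p = 0.0256), and at 0.093 without TG mouse T61340 (adjusted p = 0.0545). Its call was also lost with Xist as a covariate (0.10, adjusted p = 0.0572) and in either batch alone (adjusted p = 0.322 and 0.0943). The other lid genes Psmd6 (0.10), Psmd12 (0.12), Psmd8 (-0.01) and Psmd13 (-0.05) and the base gene Psmd1 (0.05 on the log2 scale) did not pass. Of these, Psmd6 passed without any of WT T61345, T_70262 or T_70264 or TG T60303 or T_70261, and Psmd12 without TG T_70267.

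Among the chaperones of 19S assembly, Psmd10 (gankyrin) was the only tested constitutive gene whose groups did not overlap, 1 of 43 against 7.65% of all genes tested. It had 290.1 to 372.6 normalized counts in WT mice (median 320.7) and 250.8 to 286.1 in TG mice (median 269.8). It fell by 0.26 ± 0.05 on the log2 scale (adjusted p = 0.000176). A further row of the table for the same symbol held nearly the same counts, at a median ratio of 0.986, but 206 against 271 in TG mouse T_69526. In that row the decrease was 0.25 ± 0.068 (adjusted p = 0.00364) and the groups overlapped. Psmd9 (0.10 ± 0.059) and Psmd5 (0.00 ± 0.05) did not pass.

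**Figure D3:**
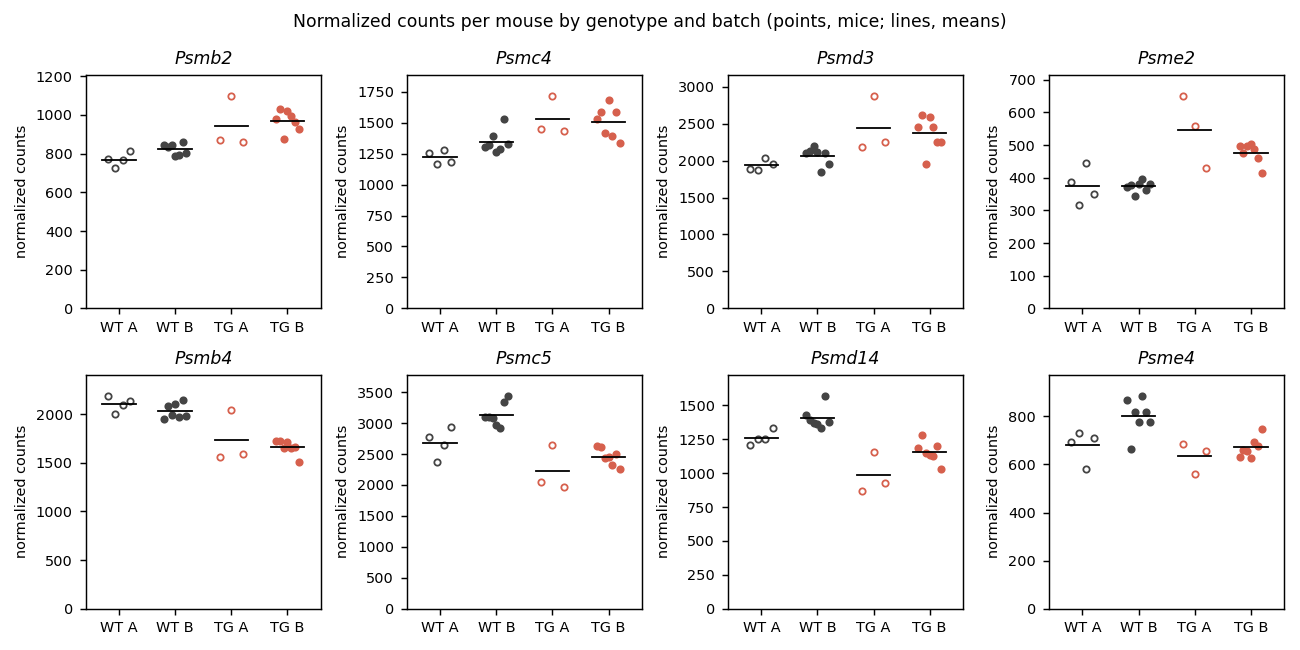
Normalized counts of 8 proteasome genes in each mouse by genotype and batch, with horizontal lines at the mean. In the upper row Psmb2, Psmc4, Psmd3 and Psme2 lie higher in TG mice, and in the lower row Psmb4, Psmc5, Psmd14 and Psme4 lie lower.

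The activators differed from each other. Psme1 and Psme2 encode the alpha and beta subunits of the PA28 activator, which is known to be induced by interferon and to work with the immunoproteasome. Psme2 had 316.3 to 445.4 normalized counts in WT mice (median 377.7) and 415.4 to 651.1 in TG mice (median 492.2), and 8 TG mice lay above every WT mouse. It rose by 0.42 ± 0.066 (adjusted p = 1.62e-05), or 1.33-fold, the largest difference among the constitutive genes with all mice. In batch B alone Psmc5 differed more (-0.36, against 0.34 for Psme2). The same held without TG mice T60303 and T61340 (-0.37 against 0.32). Psme1 had 456.0 to 635.3 in WT (median 562.3) and 492.7 to 715.2 in TG mice (median 588.6), at 0.10 ± 0.06 (adjusted p = 0.193), and its 95% confidence interval of -0.02 to 0.22 lay below the interval of 0.29 to 0.55 of Psme2. Psme2b, a near-identical copy of Psme2 elsewhere in the genome, was also higher (0.34 ± 0.079, adjusted p = 0.0011), and reads of the pair may have been exchanged in counting. Psme2b stood at 78.1 to 126.2 normalized counts in WT and 98.9 to 154.3 in TG mice.

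Beside Psme2, all 14 interferon-induced genes of a list were higher in TG mice, against 23.0% of all genes tested. The list was chosen with earlier results of these data known. The log2 fold changes of the 14 genes had a median of 1.98 and a range of 0.35 (Irf1) to 3.21 (Irf7). Their summed level was 1806.3 to 2288.6 normalized counts in WT and 3509.1 to 12723.6 in TG mice. The part of this in the difference of Psme2 was not tested.

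Psme3, which encodes the nuclear PA28 gamma, had 2191.8 to 2625.6 normalized counts in WT mice (median 2349.4) and 2396.1 to 2784.0 in TG mice (median 2527.0). It rose by 0.10 ± 0.037 (adjusted p = 0.0281), a call lost without WT mouse T61333, TG mouse T61342 or TG mouse T_69526 (adjusted p up to 0.0517), with Xist as a covariate (adjusted p = 0.0582), without batch in the model (adjusted p = 0.0608) and in either batch alone (adjusted p = 0.355 and 0.114). Psme4, which encodes the large single-chain activator PA200, had 581.0 to 883.9 in WT (median 774.4) and 561.9 to 745.5 in TG mice (median 658.6). It fell by 0.20 ± 0.055 (adjusted p = 0.00405). The values of Psme4 were lower in the WT mice of batch A (581.0 to 732.3) than in most of batch B (663.8 to 883.9), and the difference was -0.08 in batch A and -0.26 in batch B. With library size as the only scaling it did not pass (-0.13, adjusted p = 0.0743).

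The inhibitor gene Psmf1, which encodes PI31, rose by 0.19 ± 0.056 (adjusted p = 0.00729), from a median of 701.7 normalized counts in WT to 772.3 in TG mice. It was highest in TG mouse T61340 at 1019.8, and without that mouse the difference was 0.14 (adjusted p = 0.0107). Of the chaperones that assemble the 20S core, Psmg2 fell by 0.18 ± 0.058 (adjusted p = 0.0146), a call lost with library-size scaling (-0.10, adjusted p = 0.152), without a filter on low counts (-0.16, adjusted p = 0.0653), in either batch alone (adjusted p = 0.25 and 0.119) and without both of TG mice T60303 and T61340 (-0.13, adjusted p = 0.0807). Psmg1 (-0.08), Psmg3 (0.10) and Psmg4 (0.15 on the log2 scale) did not pass, and Psmg4 was the least precise with a standard error of 0.12 at medians of 60.8 and 67.8 normalized counts.

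Ratios of counts within a library do not depend on how libraries are scaled. Pairs were chosen after the values were seen, and the ratios are a description without a test. The ratio of Psmc4 to Psmc5, ATPases of the same ring, was 0.387 to 0.490 in WT mice (median 0.441) and 0.582 to 0.724 in TG mice (median 0.620). The ratio of Psmb2 to Psmb4 was 0.353 to 0.433 in WT (median 0.400) and 0.529 to 0.612 in TG mice (median 0.574). For the lid genes Psmd3 and Psmd14 it was 1.34 to 1.62 in WT (median 1.5) and 1.70 to 2.52 in TG mice (median 2.18). In these 3 pairs no TG mouse overlapped a WT mouse, in either batch. The ratio of Psme2 to Psme1 overlapped, at 0.588 to 0.792 in WT (median 0.662) and 0.685 to 1.13 in TG mice (median 0.802).

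The summed levels of each class overlapped between genotypes. Summed 20S genes were at 18056.3 to 20160.6 normalized counts in WT (median 18793.2) and 17423.5 to 22024.4 in TG mice (median 18559.8). Summed 19S genes were at 28903.7 to 36631.6 in WT (median 34001.5) and 29801.9 to 37483.1 in TG mice (median 33846.7). The medians of both sums differed by less than the spread between mice of a group. Summed genes of the activators, the inhibitor and the 20S assembly chaperones were at 5049.2 to 5619.4 in WT (median 5452.6) and 5423.3 to 6316.6 in TG mice (median 5681.4).

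**Figure D4:**
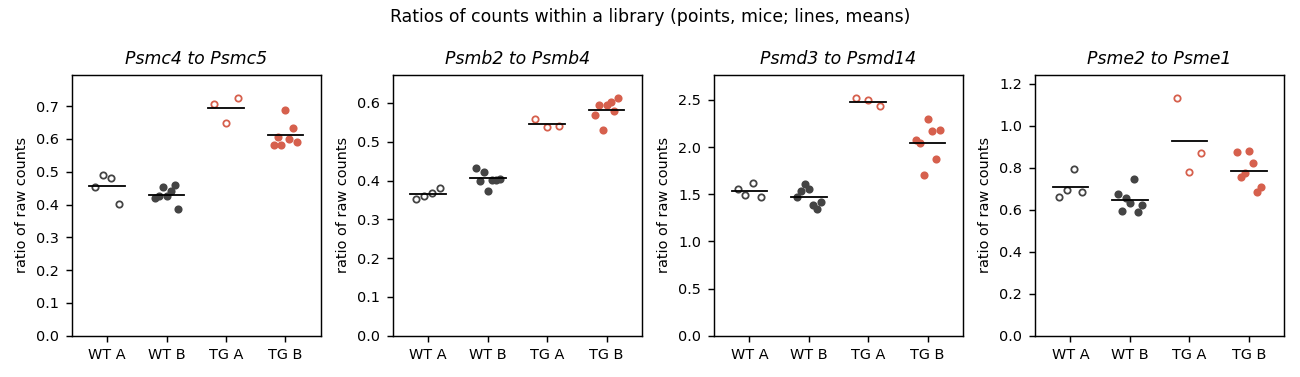
Ratio of raw counts of partner genes in each library by genotype and batch, with lines at the mean. For Psmc4 to Psmc5, Psmb2 to Psmb4 and Psmd3 to Psmd14 the TG mice lie above all WT mice, and for Psme2 to Psme1 the groups overlap.

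The batches were then compared separately. In batch A alone, with 3 TG mice, Psme2 was called higher (0.57, adjusted p = 0.0435) and 0 genes were called lower (edgeR; 8 higher and 2 lower at an unadjusted p under 0.05), against 11.8% of all genes called. In batch B alone 8 genes were called higher and 8 lower, against 39.1% of all genes. All 19 genes changed over both batches had the same sign in each, which is partly due to their choice from the pooled fit. The 10 higher genes each had a larger estimate in batch A than in batch B, for example 0.35 and 0.15 for Psmc4 and 0.36 and 0.19 for Psmd3, while of the 9 lower genes 4 had a larger decrease in batch A and 5 in batch B. TG mouse T61340 was 1 of the 3 TG mice of batch A. A test of the interaction of genotype and batch called 0 of the 43 genes, with 0 at an unadjusted p under 0.05, and 0 with DESeq2. Over all genes tested it called 0, with 1030 at an unadjusted p under 0.05.

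**Figure D5:**
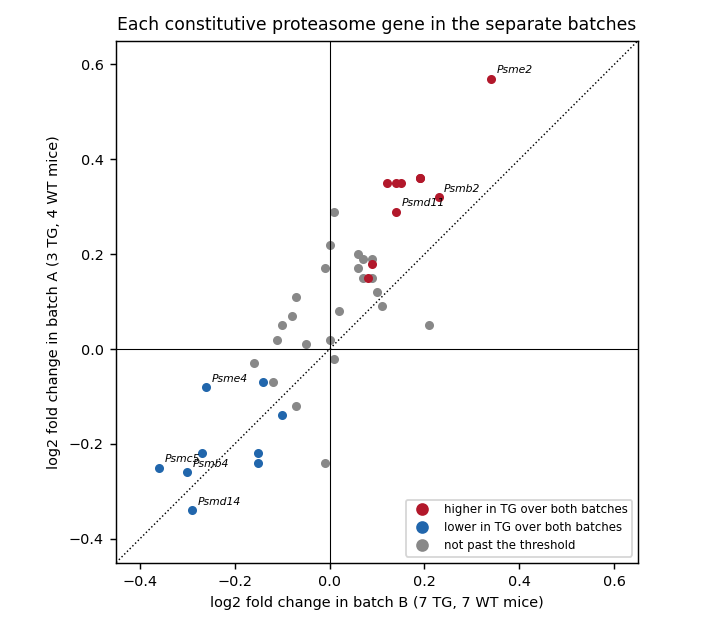
Log2 fold change of TG against WT mice in batch A against that in batch B for each of the 43 tested genes, coloured by the call over both batches, with a dotted line of equality. Psme2 lies farthest to the upper right (0.34 in batch B and 0.57 in batch A), and the higher genes lie above the line.

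The fold changes of the proteasome genes went with the base composition of their transcripts. Across the 43 genes, which share all libraries and are not independent replicates, the Spearman correlation of log2 fold change with GC content was 0.45, against 0.08 across 14167 genes with a principal transcript. The higher genes had GC contents of 47.9% to 58.3% (median 51.9%) and the lower genes 37.0% to 52.2% (median 46.4%). With transcript length the correlation was -0.16, and -0.09 across all genes. The part of base composition in the differences was not tested.

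Further genes of the ubiquitin-proteasome system were read from a list of 30, of which 29 were tested and Paaf1 was not analysed here. In this list 6 genes were higher and 9 lower, 51.7% against 44.7% of all genes, with a median log2 fold change of -0.03 against -0.00. Besides Psmb8 and Psmb9, the higher genes included the lid subunit gene Sem1 (0.21 ± 0.067, but 0.14 in batch A alone, adjusted p = 0.577), the ubiquitin gene Ubb (0.17 ± 0.055) and Nfe2l1 (0.08 ± 0.034), which encodes the transcription factor that drives proteasome genes when the proteasome is impaired. The call of Nfe2l1 was marginal (adjusted p = 0.0469) and did not hold in either batch alone (adjusted p = 0.333 and 0.296). It was also lost on leaving out any 1 of 11 mice (WT T61331, T61333, T_69523, T_70262 and T_70264, TG T61340, T61342, T_69524, T_69526, T_70252 and T_70267), for example T61340 (0.073, adjusted p = 0.0739) and T61333 (0.072, adjusted p = 0.0807, the highest of these). That of Ubb was lost in batch A alone (0.24, adjusted p = 0.285), in batch B alone (0.13, adjusted p = 0.0812) and without both of TG mice T60303 and T61340 (0.13, adjusted p = 0.0569).

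Genes of proteins that bring substrates to the proteasome were mostly lower. Of 7 shuttle factor genes 4 fell, namely Ubqln2 (-0.47 ± 0.058), Zfand5 (-0.29 ± 0.044), Rad23b (-0.20 ± 0.046) and Ubqln1 (-0.18 ± 0.042). Ubqln2 had 3456.2 to 4589.8 normalized counts in WT and 2244.4 to 3284.3 in TG mice, without overlap (adjusted p = 4.14e-07). The genes of the proteasome-bound deubiquitinases Uchl5 (-0.29 ± 0.077) and Usp14 (-0.15 ± 0.046), of the proteasome-bound ubiquitin ligase Ube3c (-0.36 ± 0.044) and of Akirin2 (-0.28 ± 0.042), which helps to import proteasomes into the nucleus, were also lower. The call of Usp14 was lost without batch in the model (-0.13, adjusted p = 0.121), with library size as the only scaling (-0.073, adjusted p = 0.176) and without both of TG mice T60303 and T61340 (-0.10, adjusted p = 0.051). Ube3c was at 1865.2 to 2131.1 in WT and 1263.9 to 1694.8 in TG mice. Ngly1, whose product activates the protein of Nfe2l1, fell by 0.30 ± 0.047. The ubiquitin receptor gene Adrm1 (-0.07 ± 0.054) and the assembly factor gene Pomp (-0.12 ± 0.05) did not pass (adjusted p = 0.278 and 0.0648). Both were called lower without TG mouse T61340, at -0.12 and -0.14 (adjusted p = 0.0283 and 0.0145), and Pomp also without WT mouse T61333 (-0.14, adjusted p = 0.0156) or T_70256 (-0.13, adjusted p = 0.0499) and in batch B alone (-0.15, adjusted p = 0.0242).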

How the data were processed

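Bulk RNAseq of neocortex covered 11 WT and 10 TG mice, grouped by the genotype in the labels, each mouse being a replicate. The deposited values are whole-number read counts for each gene symbol, which the authors left unnormalized. Libraries were sequenced at BGI with paired reads of 100 bases, and reads were aligned to GRCm38. The submitters' processing notes name HISAT, HISAT2, Bowtie, Bowtie2, RSEM and mm10 without roles, and the use of strand is not given in the sources used here, so overlapping genes may share reads. The table held 48474 rows, 13329 of them without a count and 2536 of them further rows of a symbol (4.11% of counts), kept as deposited. The deposited table contained 0 columns of other samples.

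Counts were tested with edgeR 4.0.16 in R 4.3.3 (expression filter with a minimum count of 10 and a minimum total of 15, TMM, quasi-likelihood test with genotype and batch, Benjamini-Hochberg adjustment over 18248 genes, threshold 0.05, two-sided). Standard errors on the log2 scale came from the fold change and the F statistic, and the scripts were tested on simulated data. Positions, lengths and GC contents came from RefSeq (GRCm38.p6) and GENCODE principal transcripts (GRCm38). Total counts were 20700912 to 22263809 per mouse. All members are accounted for, and full values were given for the 12 with the lowest adjusted p, Psmb5 to Psmb7, Psme1 to Psme4 and the member of largest difference in each subunit class. The members and gene lists were chosen with earlier results of these data known. Alternatives were DESeq2 1.42.0, no batch term, scaling by library size only, upper quartile or DESeq2 size factors, no filter or at least 10 counts in every mouse, each batch alone, Xist (log2 CPM, prior count 2) as a covariate, further rows left out or added, and each mouse left out. Leaving out TG mice T60303 and T61340 together was chosen after seeing the data. Promoter letters were searched on both strands. The values of 1 gene of the related list are not reported here. No sample was left out of the main analysis.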

Additional observations from a re-analysis of the deposited data

Results flagged for a closer look

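In TG mouse T61340 of batch A, 7 of the 43 tested genes had a value above all other TG mice by more than Dixon's 95% limit for 10 values. The gap to the nearest TG mouse, as a share of the range of the TG group, was 0.483 for Psmb1, 0.657 for Psmb3, 0.594 for Psmb4, 0.494 for Psmb5, 0.633 for Psmb7, 0.562 for Psmf1 and 0.618 for Psmg3. Chance sets apart about 1 in 20 groups, or 2.1 of 43, though genes of a single library are not independent. All 7 were in this mouse, and 5 of them were beta subunit genes. Psmb4, lower in TG mice, was at 2046.7 normalized counts there, against 1511.6 to 1728.8 in the other TG mice. Psmb3, higher in TG mice, was at 1531.2 against 981.6 to 1170.3. Psmb7 was at 3111.9 against 2009.1 to 2413.7. Psmb1, Psmb5, Psmf1 and Psmg3 were at 2481.5, 1195.3, 1019.8 and 252.2 normalized counts, against at most 2174.4, 949.6, 833.5 and 175.5 in the others. Without this mouse the log2 fold change was 0.063 for Psmb1 and 0.032 for Psmg3, against 0.10 for each with all mice.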

How the results depend on the processing

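No paired analysis was possible because the groups share no replicate numbers. The 19 called genes kept their direction under every alternative run, and in 385 of 399 values with 1 mouse left out they kept their call, the exceptions being Psma6, Psmd7 and Psme3. Under the other alternatives 212 of 247 values kept the call. Scaling by library size only gave 21 genes higher and 4 lower (20S 6 and 1, 19S 11 and 3, lower regulators 0, higher related genes 11), against 31.9% and 15.1% of all genes. Batch A alone gave 1 and 0 (20S 0 and 0, 19S 0 and 0, regulators 1 and 0, related genes 3 and 3), with fewer mice. Of 20S genes 1 was lower without batch in the model, without a filter and in batch B alone. The lower regulators were 1 without a filter, in batch B alone and without TG mice T60303 and T61340. Over single mice left out, 2 to 4 20S genes were higher (4 without TG mouse T61342) and 1 to 4 lower (4 without TG mouse T61340).

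Values that changed sign were all of genes not called with all mice. With library size only they were Psma1 0.009, Psma5 0.041, Psmb7 0.044, Psmd13 0.022, Psmd5 0.075, Psmd8 0.062 and Adrm1 0.00076. In batch A alone they were Psma1 0.019, Psma5 0.0062, Psmb7 0.068, Psmd13 0.054 and Psmd8 0.11, and in batch B alone Psmd1 -0.0079 and Psmd5 0.0086. Psma4 was at -0.00012 with DESeq2, -0.00023 with its size factors, -0.0012 with Xist and -0.032 without TG mice T60303 and T61340. Psmd5 was at 0.004 without batch, 0.012 without a filter, 0.0012 and 0.0007 with further rows left out or added and 0.022 without TG mice T60303 and T61340. With 1 mouse left out the range was -0.034 to 0.031 for Psma4, -0.019 to 0.018 for Psmd5 and -0.065 to 0.008 for Psmd8. Psma8 and Psmb11 were too low to test. The cause of these changes was not tested.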
